A study of Mus musculus with 14 samples.

Results

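The aryl hydrocarbon receptor (AHR) set comprised 7 genes of the 36413 gene names on the array: the receptor gene Ahr, its partner Arnt, its repressor Ahrr and the targets Cyp1a1, Cyp1b1, Tiparp and Aldh3a1. They were matched by gene name, and their log2 levels in all 7 groups of the study were known when they were chosen. Their values are therefore given as a description, without a test. Of the 7, 6 were well above background by the scanner's flags on every array judged of at least 1 group. Cyp1a1 was not.

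AHR is a ligand-activated transcription factor that waits in the cytoplasm in a complex with the HSP90 chaperone. When it binds a dioxin, a polycyclic hydrocarbon or an endogenous compound such as a tryptophan metabolite, it enters the nucleus, pairs with ARNT and binds DNA at a short core sequence. Its best known targets encode enzymes that oxidise foreign compounds, and Ahrr and Tiparp are targets whose products restrain the receptor.

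The core of the AHR and ARNT binding element is GCGTG, which reads CACGC on the other strand. The 250 bases upstream of the annotated start of 4 target genes are shown to place these letters, which stand in capitals, in genes that followed different patterns. Sequences are from RefSeq on GRCm38.p6, 5′ to 3′ on the strand of the gene, and 5 of the 7 genes were matched in that table. The windows are chr9:57697363-57697612 (plus strand) for Cyp1a1, chr17:79715062-79715311 (minus strand) for Cyp1b1, chr3:65528197-65528446 (plus strand) for Tiparp and chr13:74292332-74292581 (minus strand) for Ahrr.
Cyp1a1: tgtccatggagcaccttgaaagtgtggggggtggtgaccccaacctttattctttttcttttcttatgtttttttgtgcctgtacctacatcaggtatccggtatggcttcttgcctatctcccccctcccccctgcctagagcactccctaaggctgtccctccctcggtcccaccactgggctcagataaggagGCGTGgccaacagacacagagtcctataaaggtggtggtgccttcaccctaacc
Cyp1b1: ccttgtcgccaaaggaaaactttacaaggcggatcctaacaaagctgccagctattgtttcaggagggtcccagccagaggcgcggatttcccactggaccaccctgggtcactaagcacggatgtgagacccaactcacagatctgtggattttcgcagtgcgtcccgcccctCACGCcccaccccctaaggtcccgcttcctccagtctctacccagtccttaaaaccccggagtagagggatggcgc
Tiparp: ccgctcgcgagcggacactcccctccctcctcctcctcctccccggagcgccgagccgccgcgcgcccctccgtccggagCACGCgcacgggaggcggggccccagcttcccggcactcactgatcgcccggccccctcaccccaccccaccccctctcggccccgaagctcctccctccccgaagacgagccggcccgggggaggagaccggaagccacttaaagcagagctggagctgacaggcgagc
Ahrr: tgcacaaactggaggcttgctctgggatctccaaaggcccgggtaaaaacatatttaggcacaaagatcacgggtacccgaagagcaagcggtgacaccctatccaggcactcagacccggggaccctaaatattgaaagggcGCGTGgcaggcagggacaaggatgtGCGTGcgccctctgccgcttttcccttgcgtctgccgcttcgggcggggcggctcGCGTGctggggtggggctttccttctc

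Ahrr held 3 matches, with first bases at positions -107, -82 and -27 from the start site. Cyp1a1 held 1 match at position -54, Cyp1b1 held 1 on the other strand at position -76, and Tiparp held 1 on the other strand at position -170. Arnt, not printed, also held 1. Of 32851 promoter windows of this length, 28.2% held at least 1 match and 2.77% held 3 or more. Among the 9178 windows of at least 60% G and C these shares were 53.9% and 7.83%. A match describes the letters only and does not show that the receptor binds there.

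The study placed D2A1 cells, a mouse breast cancer line, with mouse embryonic fibroblasts (MEFs) that were Hsf1 +/+ (WT) or Hsf1 -/- (null). Hsf1 encodes a transcription factor of the heat shock response. The 7 groups were D2A1 cells alone, with WT MEFs and with null MEFs, and WT MEFs and null MEFs each alone and with D2A1 cells. All cells grew for 72 hours in DMEM with 10% FCS, and cells from co-culture were separated by flow sorting. MEFs that served as partners of profiled D2A1 cells had first received mitomycin C, which stops division, at 10 ug/ml for 2 hours. Each group had 2 arrays, A on 1 slide and B on the other, and the labels do not say that they came from separate cultures. The p-values therefore measure only the spread between these samples. Several comparisons share arrays, so their values are set side by side and not counted as separate evidence. Lower RNA per cell and fewer cells of a type cannot be told apart in such bulk samples.

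The scanner files of tumor cells alone A and tumor cells with null MEFs A were faulty, so levels come from the authors' log2 value table, in which the lowest correlation between any pair of the 14 arrays was 0.935. Hsf1 itself was lower in null than in WT MEFs, by 1.83 ± 0.12 (log2, SE of the fit, n = 2 arrays per group) alone and by 1.45 ± 0.12 in co-culture. Its probe stayed above background in null MEFs, and whether it lies in the deleted part is not recorded, so it is a limited check of the labels.

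Genes typical of the other cell type were also raised in the sorted cells. The gain of a gene over the same cells grown alone was taken as a percent of its level in the other cell type from co-culture, for genes at least 32-fold higher in that other type grown alone. The labels place the profiled tumor cells with mitomycin C-treated MEFs, so gain and reference level may come from different cultures. In WT MEFs from co-culture the median over 77 tumor-typical genes was 37.9% (A) and 38.0% (B). In null MEFs from co-culture it was 9.08% and 9.51% over 90 genes. MEF-typical genes in tumor cells stood at 7.35% and 7.39% with WT MEFs (330 genes) and at 9.29% and 23.0% with null MEFs (252 genes). The summed level of 10 epithelial markers in WT MEFs was 9.93 and 10.12 (log2) alone and 16.18 and 16.38 after co-culture, against 16.50 and 16.56 in tumor cells alone. Null MEFs had 11.94 and 12.22 alone and 14.76 and 15.33 after co-culture. Of these 10 epithelial markers only 5 were well above background in tumor cells alone, where Epcam, Cdh1, Krt19, Cldn4 and Grhl2 were not. With WT MEFs 4 were and with null MEFs 8, Epcam and Cdh1 in neither. Lone WT MEFs had 5 well above background and lone null MEFs 8, so the sum is a limited tumor marker. The summed level of 13 fibroblast markers ranged from 18.96 to 19.61 in tumor cells, from 20.16 to 20.31 in WT MEFs and from 19.28 to 19.63 in null MEFs. Summed macrophage markers ran from 9.49 to 10.21 in MEFs alone, from 10.90 to 12.34 in co-cultured MEFs and from 13.14 to 13.56 in tumor cells. Endothelial markers stayed between 8.11 and 8.43 throughout, with Cdh5, Tek and Emcn not well above background in any group.

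**Figure D1:**
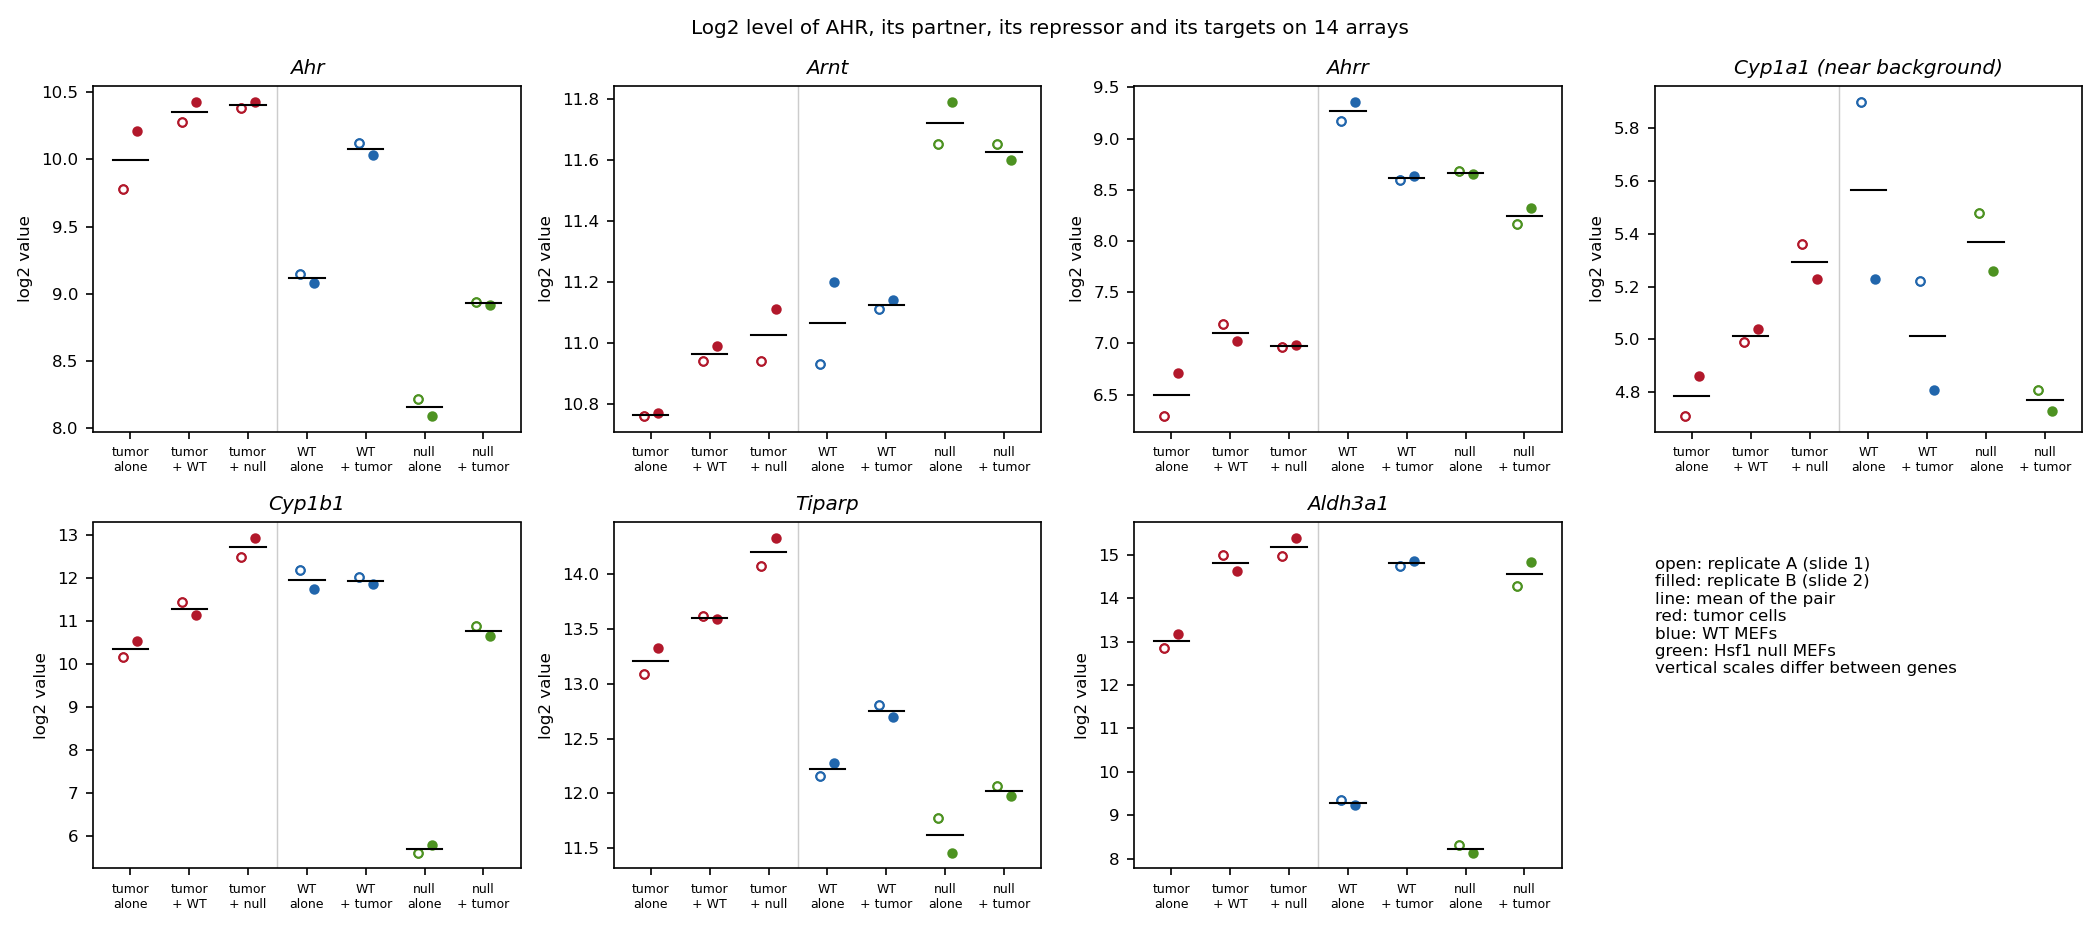
Log2 level (vertical axis, scale set per gene) of the 7 genes on each of the 14 arrays, by group; open and filled points are replicates A and B and the line is their mean. Aldh3a1 sits between 8.14 and 9.34 in MEFs alone and between 14.28 and 14.86 in co-cultured MEFs, and Cyp1b1 sits at 5.61 and 5.79 only in null MEFs alone.

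Ahr was highest in tumor cells from co-culture and lowest in null MEFs alone. In tumor cells its log2 level was 9.78 and 10.21 alone (A and B), 10.28 and 10.43 with WT MEFs and 10.38 and 10.43 with null MEFs. In WT MEFs it was 9.15 and 9.08 alone and 10.12 and 10.03 after co-culture. In null MEFs it was 8.22 and 8.09 alone and 8.94 and 8.92 after co-culture. Every null MEF array was below every WT MEF array, and in both genotypes the co-cultured arrays lay above those of the cells alone. The receptor was lower in null than in WT MEFs by 0.96 ± 0.14 alone and by 1.15 ± 0.14 in co-culture, a 2.22-fold difference. Its level was 0.96 ± 0.14 higher in WT MEFs and 0.77 ± 0.14 higher in null MEFs after co-culture. Tumor cells had the higher Ahr level and tumor-typical genes were raised in these samples as given above, and the part of tumor RNA in the Ahr difference was not tested. With the median share subtracted, the difference in WT MEFs was 0.08, or 0.76 when the rest was also scaled back up, and in null MEFs 0.34 or 0.48. In the same way the genotype difference in co-culture was -0.69 or -1.24, so the plain subtraction took it below 2-fold. In tumor cells the levels with the 2 kinds of partner overlapped and were 0.36 ± 0.14 and 0.41 ± 0.14 above those of cells alone. These differences were 0.50 and 0.60 on slide A and 0.21 and 0.22 on slide B. On slide A the scanner files of tumor cells alone and with null MEFs were faulty.

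The array read Ahr with 2 probes, at chr12:36182724-36182783 and chr12:36188523-36188582 (mm9, per the scanner files, minus strand). No annotation of that build was used here, so exon or UTR placement is not given for any probe. On the 12 arrays with sound scanner files the brighter probe was above background on 12 and the other on 11. Between co-cultured and lone WT MEFs they differed by 1.32 and 0.87, and between null and WT MEFs alone by -1.43 and -1.16, with the same direction from both probes, although the arrays of the dimmer probe overlapped between these groups.

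Arnt, which encodes the obligate partner, moved least across the 7 groups. Its log2 level was 10.76 and 10.77 in tumor cells alone, 10.94 and 10.99 with WT MEFs and 10.94 and 11.11 with null MEFs. In WT MEFs it was 10.93 and 11.20 alone and 11.11 and 11.14 after co-culture. In null MEFs it was 11.65 and 11.79 alone and 11.65 and 11.60 after co-culture. All null MEF arrays lay above all WT MEF arrays, and co-cultured and lone cells of the same genotype overlapped. Arnt was thus higher in null MEFs, by 0.65 ± 0.12 alone and 0.50 ± 0.12 in co-culture, the opposite direction to Ahr. The difference in co-culture reached 2-fold when the tumor share was subtracted, and was 0.45 when the rest was rescaled. Its 2 probes, at chr3:95299434-95299493 and chr3:95301081-95301140 (mm9, plus strand), both gave the higher level in null MEFs alone, by 0.74 and 0.57. They disagreed in tumor cells with WT MEFs against alone, where they gave -0.32 and 0.77 with 1 sound array of tumor cells alone.

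Ahrr, whose product competes with AHR for ARNT, was higher in MEFs than in tumor cells. Its log2 level was 9.17 and 9.36 in WT MEFs alone and 8.60 and 8.63 after co-culture. Null MEFs had 8.68 and 8.65 alone and 8.17 and 8.32 after co-culture. In tumor cells it was 6.29 and 6.71 alone, 7.19 and 7.02 with WT MEFs and 6.96 and 6.98 with null MEFs. No group of MEFs overlapped its co-cultured counterpart, and co-cultured MEFs were lower, by 0.66 ± 0.14 for WT and 0.42 ± 0.14 for null. They were -0.86 and -0.48 after plain subtraction of the tumor share and -0.17 and -0.34 when the rest was rescaled. Tumor cells were higher with MEFs, by 0.61 ± 0.14 with WT and 0.47 ± 0.14 with null partners, which became 0.27 and -0.29 after plain subtraction of the MEF share and 0.38 and -0.03 with rescaling, so that the direction turned with null partners. Its probes lie at chr13:74348566-74348612 and chr13:74350685-74350744 (mm9, minus strand). They gave -0.84 and -0.81 for co-cultured against lone WT MEFs, although the second was above background on only 8 of 12 arrays.

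Cyp1a1, the classic reporter of AHR activity and an enzyme that oxidises polycyclic hydrocarbons, was near background in every group. Its log2 values ran from 4.71 to 5.90 over the 14 arrays. Its probe, at chr9:57551535-57551594 (mm9, plus strand), was well above background on 1 of the 12 sound arrays, WT MEFs alone A. No fold is given for it, since in no group was it well above background on every array judged.

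Cyp1b1, a related cytochrome P450 that also oxidises steroids, had the widest contrast between the MEF genotypes. Its log2 level was 12.18 and 11.74 in WT MEFs alone and 12.01 and 11.86 after co-culture. In null MEFs it was 5.61 and 5.79 alone and 10.88 and 10.65 after co-culture. In tumor cells it was 10.16 and 10.52 alone, 11.43 and 11.14 with WT MEFs and 12.49 and 12.92 with null MEFs. Lone null MEFs stood far below all other groups, while lone and co-cultured WT MEFs overlapped. The probe, at chr17:80106547-80106606 (mm9, minus strand), was well above background on all 12 sound arrays, those of lone null MEFs included. Lone null MEFs were lower than lone WT MEFs by 6.27 ± 0.20, a 76.9-fold difference and the 29th largest in that direction among 25852 genes. Co-cultured null MEFs were 5.07 ± 0.20 above lone null MEFs, a 33.6-fold difference ranked 8 among genes higher there. The log2 values of lone null MEFs lay inside the range of Cyp1a1, which was near background. The size of both folds is therefore less certain than the SE shows. Over the alternative runs the genotype difference of lone MEFs ranged from -6.72 to -5.09. It was smallest with normexp and quantile on the 12 sound arrays, as was the co-culture difference in null MEFs. Co-cultured WT MEFs differed from lone WT MEFs by -0.03 ± 0.20. The co-culture differences of the genotypes were 5.10 apart on the log2 scale, 5.45 on slide A and 4.75 on slide B.

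The gain of Cyp1b1 in co-cultured null MEFs was 27.5% (A) and 23.3% (B) of its level in tumor cells co-cultured with null MEFs. That lay inside the 5th to 95th percentile of tumor-typical genes on both arrays, which ran from 2.85% to 32.4% on A and from 1.38% to 38.9% on B. On A 6 and on B 12 of the 90 tumor-typical genes gained more. Removing the median share left a difference of 4.43, or 4.57 when rescaled. How much of the Cyp1b1 gain came from tumor RNA was not tested. In co-culture Cyp1b1 remained lower in null than in WT MEFs, by 1.17 ± 0.20.

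In tumor cells Cyp1b1 was 0.94 ± 0.20 higher with WT MEFs and 2.37 ± 0.20 higher with null MEFs than alone, a 5.15-fold difference in the second case. No arrays of these 3 groups overlapped, and cells with null partners were 1.42 ± 0.20 above those with WT partners, by 1.06 on slide A and 1.78 on slide B. The gain with null partners was 255% and 370% of the level in co-cultured null MEFs. MEF-typical genes had medians of 9.29% and 23.0% there, and of 252 such genes none on A and 1 on B gained more. Cyp1b1 was not itself such a gene, with 5.61 and 5.79 in lone null MEFs against 10.16 and 10.52 in lone tumor cells. Its percents are therefore not directly comparable with theirs. With WT partners the gain was 37.5% and 24.4%, where MEF-typical genes had medians of 7.35% and 7.39%. Of 330 such genes 1 on A and 5 on B gained more.

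Tiparp, which encodes an ADP-ribosyltransferase that represses AHR, was highest in tumor cells. Its log2 level was 13.09 and 13.33 alone, 13.62 and 13.59 with WT MEFs and 14.08 and 14.33 with null MEFs. In WT MEFs it was 12.16 and 12.28 alone and 12.81 and 12.70 after co-culture. In null MEFs it was 11.78 and 11.46 alone and 12.07 and 11.98 after co-culture. The 3 tumor cell groups did not overlap and followed the same order as Cyp1b1. Cells with null partners were 0.99 (slide A) and 1.01 (slide B) above cells alone, a mean just under the 2-fold threshold, and 0.60 ± 0.14 above cells with WT partners. Co-cultured MEFs were higher than lone MEFs, by 0.54 ± 0.14 for WT and 0.40 ± 0.14 for null, but both directions turned after subtraction of the tumor share. The values were then -1.14 and -0.39, or -0.45 and -0.25 when rescaled. Null MEFs were lower than WT MEFs, by 0.59 ± 0.14 alone and 0.73 ± 0.14 in co-culture. In co-culture plain subtraction turned the direction, with null MEFs 0.15 above WT MEFs, while rescaling gave -0.40. Its probes, at chr3:65357710-65357769 and chr3:65358749-65358808 (mm9, plus strand), gave 0.44 and 0.52 for co-cultured against lone WT MEFs.

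Aldh3a1, an aldehyde dehydrogenase that clears reactive aldehydes, was higher in every co-cultured group than in the same cells alone. Its log2 level was 9.34 and 9.24 in WT MEFs alone and 14.74 and 14.86 after co-culture. Null MEFs had 8.32 and 8.14 alone and 14.28 and 14.84 after co-culture. In tumor cells it was 12.85 and 13.18 alone, 14.99 and 14.62 with WT MEFs and 14.96 and 15.38 with null MEFs. Co-cultured MEFs, of either genotype, reached levels above tumor cells alone. The difference was 5.51 ± 0.21 in WT MEFs, 45.5-fold and ranked 31 of 25852 genes, and 6.33 ± 0.21 in null MEFs, 80.6-fold and ranked 3. Tumor cells were 1.79 ± 0.21 higher with WT MEFs and 2.16 ± 0.21 higher with null MEFs, 3.45-fold and 4.46-fold. The levels in tumor cells with WT and with null partners overlapped, as did those of co-cultured WT and null MEFs, whereas lone null MEFs were 1.06 ± 0.21 below lone WT MEFs.

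The Aldh3a1 gain in co-cultured WT MEFs was 93.4% (A) and 102% (B) of its level in tumor cells co-cultured with WT MEFs. None of the 77 tumor-typical genes gained more on A and 1 did on B. In null MEFs the gain was 53.1% and 78.5%, exceeded by 3 of 90 tumor-typical genes on A and by none on B. After subtraction of the median share the MEF differences were 4.82 for WT and 6.11 for null, and after rescaling 5.50 and 6.25. Its probes overlap, at chr11:61031857-61031916 and chr11:61031864-61031920 (mm9, plus strand). They gave 5.01 and 6.40 for WT MEFs and 5.33 and 7.91 for null MEFs, so the size but not the direction depended on the probe. In lone null against lone WT MEFs they gave -0.62 and -1.78.

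**Figure D2:**
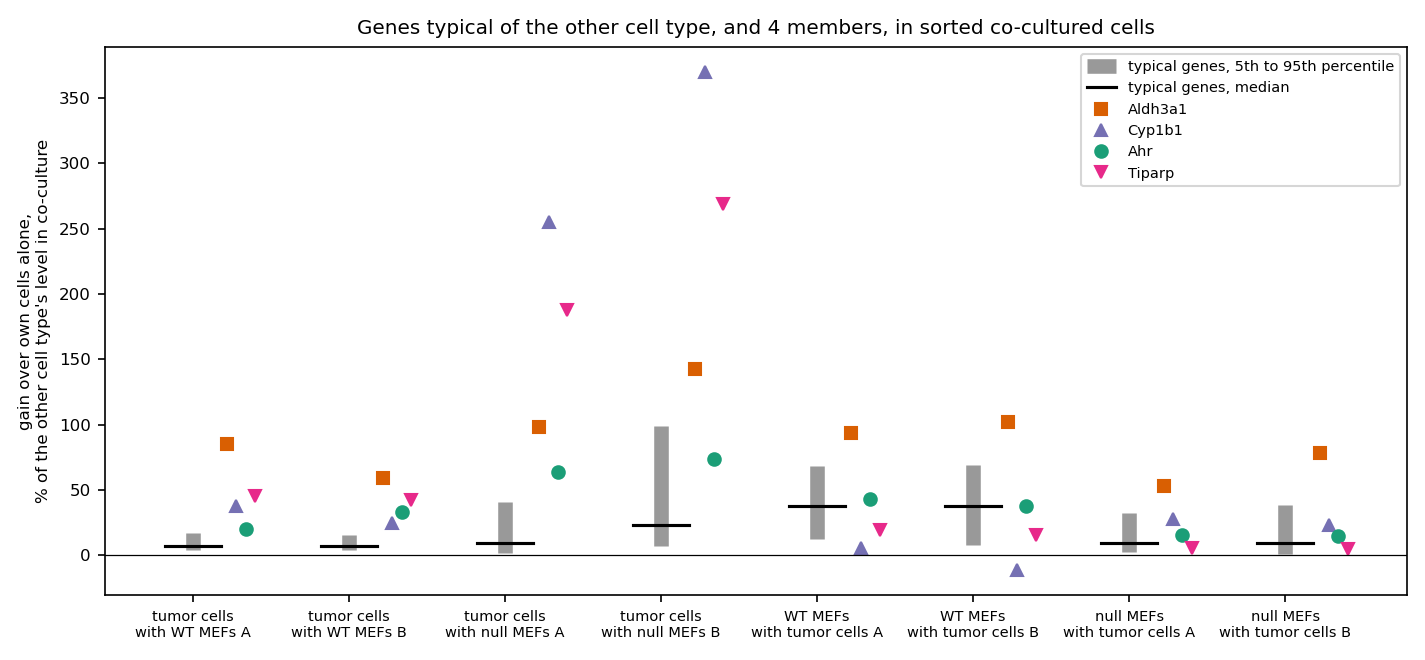
Gain over the same cells alone, as a percent of the other cell type's level in co-culture (vertical axis), on the 8 arrays of sorted co-cultured cells; grey bars span the 5th to 95th percentile of genes typical of the other cell type, black lines are their medians and symbols are 4 genes of the set. Aldh3a1 lies above the grey bar on all 8 arrays. In tumor cells that bar holds MEF-typical genes, whereas Aldh3a1 was higher in lone tumor cells than in lone MEFs. Cyp1b1 lies inside the bar in null MEFs at 27.5% and 23.3%, below it in WT MEFs and above it in tumor cells. It too was higher in lone tumor cells than in lone null MEFs.

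**Figure D3:**
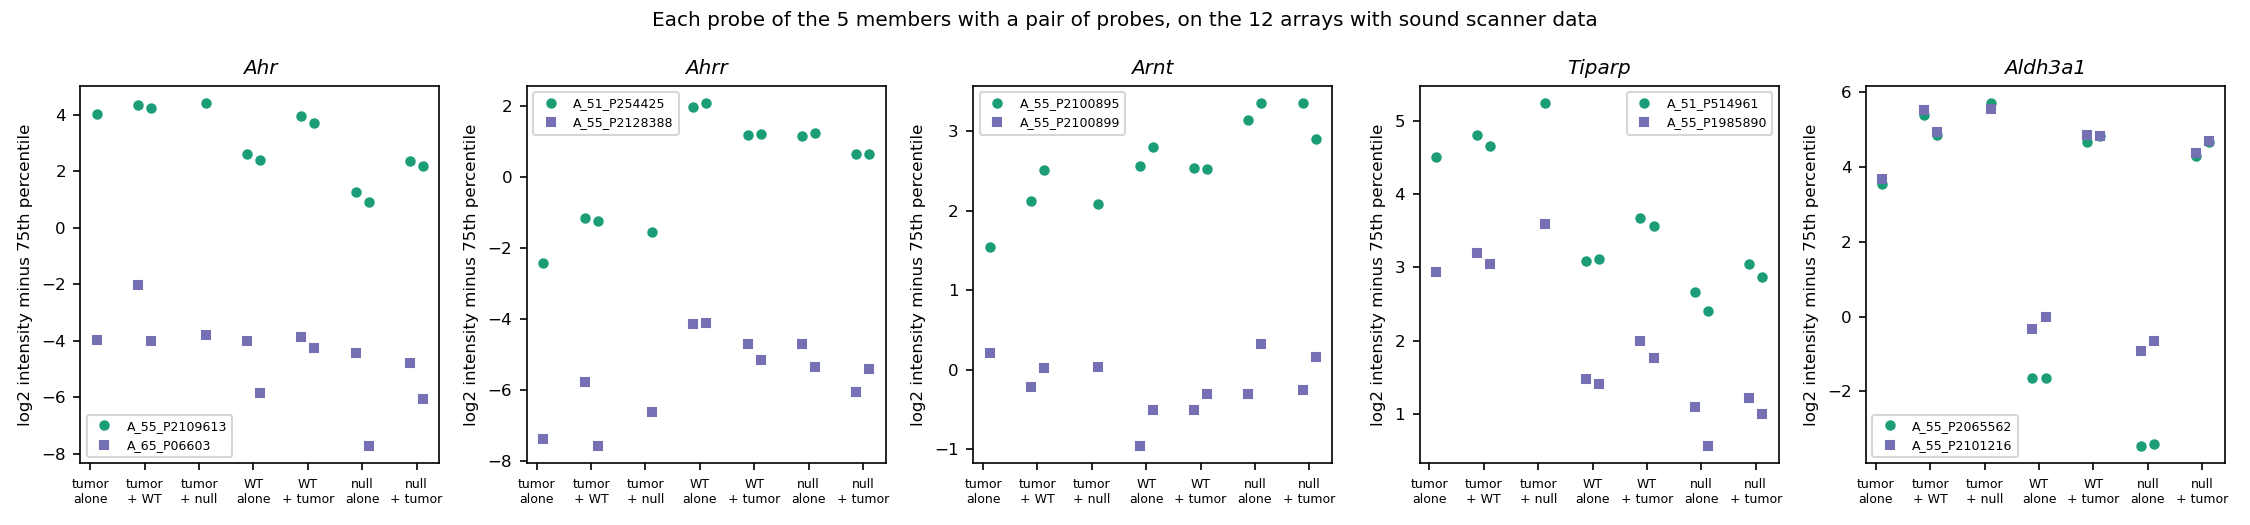
Log2 intensity minus the 75th percentile of the array (vertical axis) for each probe of the 5 genes with a pair of probes, by group, on the 12 arrays with sound scanner files. The Aldh3a1 probes lie together where the gene is high and apart in lone MEFs, and the second Ahr and Ahrr probes are dim.

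Counted over the set, few of the 6 genes above background were at least 2-fold apart without overlap in any comparison. In tumor cells with WT MEFs 1 was higher (Aldh3a1), where 3.43% of all 25852 genes tested were. With null MEFs 2 were higher (Cyp1b1 and Aldh3a1, background 5.37%), and between the partners 1 was higher with null (Cyp1b1, 3.19%). In WT MEFs after co-culture 1 was higher (Aldh3a1, 3.25%), and in null MEFs 2 (Cyp1b1 and Aldh3a1, 2.02%). In null against WT MEFs 2 were lower alone (Cyp1b1 and Aldh3a1, 7.13%) and 2 in co-culture (Ahr and Cyp1b1, 5.55%). Since the members were chosen on these levels, nothing is read from the counts or from the medians that follow. The median difference of the 6 was 0.51, 0.74 and 0.22 in the 3 tumor cell comparisons, where all genes had -0.04, -0.09 and -0.04. It was 0.30 and 0.59 in co-cultured WT and null MEFs, where all genes had -0.04 in each, and -0.78 and -0.55 in null against WT MEFs alone and in co-culture, where all genes had 0.03 and 0.00. Single arrays moved some counts. The count in tumor cells with WT MEFs was 2 when replicate B of either group was left out, that in WT MEFs was 2 without WT MEFs with tumor cells B, and that in lone MEFs was 1 without null MEFs alone B.

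**Figure D4:**
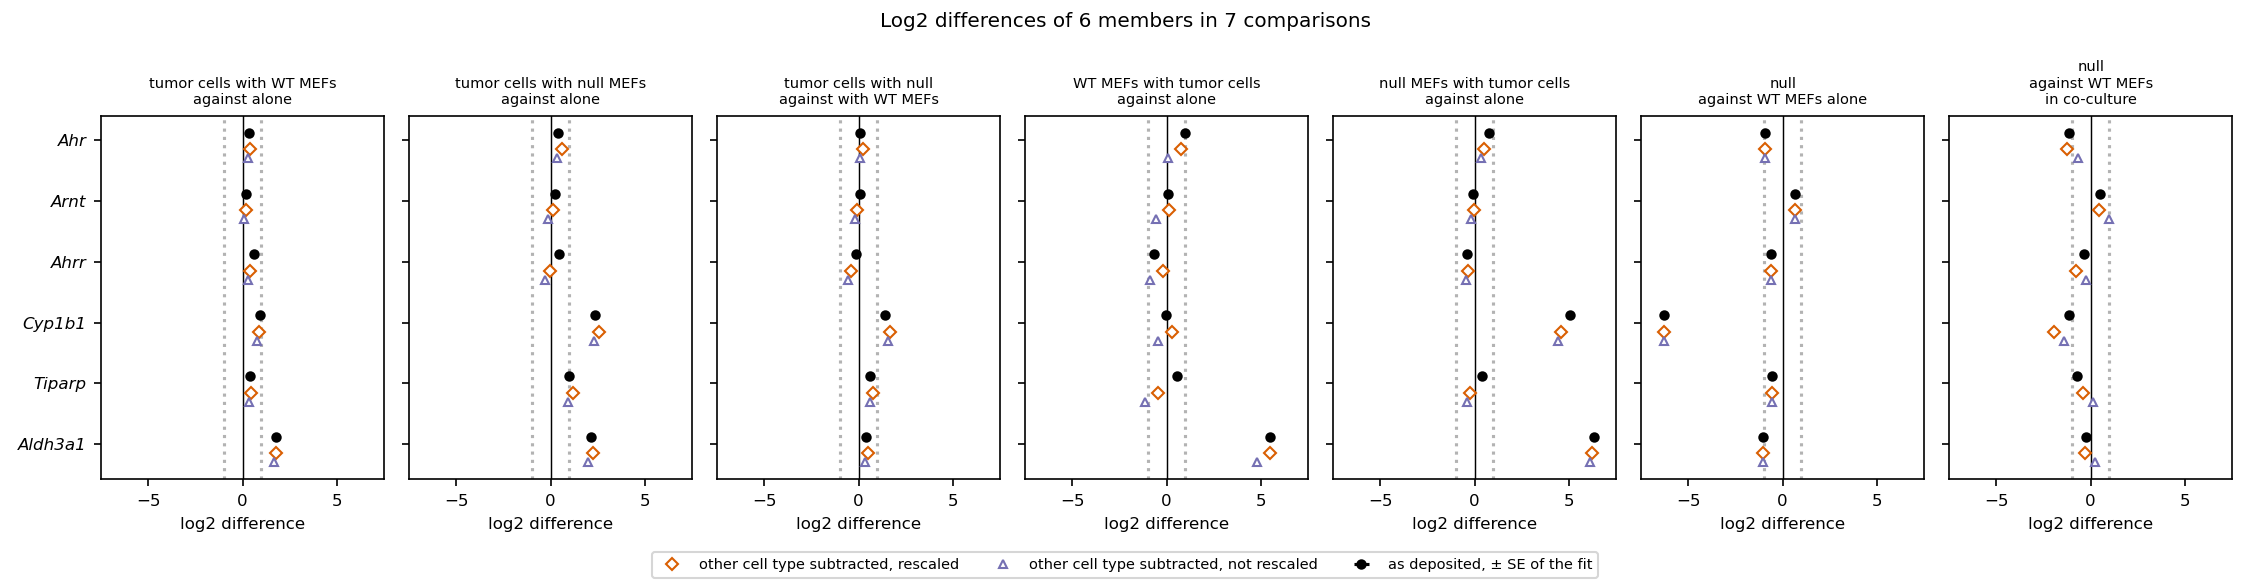
Log2 differences (horizontal axis) of the 6 genes above background in the 7 comparisons; black points are values as deposited with the SE of the fit, which is about the size of the point, and open symbols show the share of the other cell type subtracted, with and without rescaling. Dotted lines mark 2-fold. Aldh3a1 at 5.51 and 6.33 in MEFs and Cyp1b1 at -6.27 in lone null MEFs stand farthest from 0.

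Across the 14 arrays, which fall into groups of cell type, genotype and culture, the genes with the most similar pattern differed by member. For Ahr they included Fgf2 and Rbpj (Pearson r = 0.985 each) and Axl (0.982), among 25851 genes compared. For Cyp1b1 they included Col4a5 (0.948), Ltbp2 (0.940) and Id4 (0.931). For Aldh3a1 they included Cp (0.969), Spp1 (0.966) and Trem2 (0.966), for Tiparp Camk2d (0.965) and Il11 (0.963), for Ahrr Fmod (0.993) and for Arnt Scx (0.983). Within the set Ahr had r = 0.923 with Tiparp, 0.779 with Aldh3a1, 0.755 with Cyp1b1, -0.651 with Ahrr and -0.810 with Arnt. These are descriptions over arrays that share groups and slides.

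Beyond the members, 53 genes around the receptor were listed in 6 groups, of which 52 were on the array and 42 were tested with limma (Benjamini-Hochberg adjusted p, threshold 0.05). These lists were written with earlier results of these data known. The p-values and shares that follow are therefore not independent evidence about the pathway. Co-regulators passed in 3 of the comparisons: 1 of 8 (12.5%) in tumor cells with null MEFs against alone, where 19.7% of all genes passed, and 3 of 8 (37.5%) in null against WT MEFs alone and in co-culture, where 33.8% and 29.6% did.

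In tumor cells with WT MEFs 7 of the 42 rose and 2 fell, a share of 21.4% beside 11.8% of all genes tested. Xdh, which encodes xanthine dehydrogenase, was 10.14 and 10.36 alone and 11.10 and 11.07 with WT MEFs, a rise of 0.83 ± 0.12 (limma adjusted p = 0.00163). Gsta1, a glutathione transferase, fell from 8.73 and 8.75 to 6.82 and 6.97, by 1.85 ± 0.21 (limma adjusted p = 0.000337). Arntl, the clock partner BMAL1, and Arntl2 rose by 0.77 and 0.59. Nfe2l2, the antioxidant regulator NRF2, rose by 0.50, and Slc7a5, an amino acid transporter, fell by 0.55. The count of 9 was 5 without tumor cells with WT MEFs A, 4 without their B and 4 without tumor cells alone A.

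With null MEFs 7 rose and 3 fell, a share of 23.8% beside 19.7% of all genes. Xdh reached 11.88 and 12.20, a rise of 1.79 ± 0.12 (limma adjusted p = 3.57e-06). Ereg, the EGF family ligand epiregulin, rose by 0.73 and Npas4, an activity-induced bHLH-PAS factor, by 1.74. Npas4 was 10.71 to 11.18 in lone MEFs, and subtraction of the MEF share, with or without rescaling, brought it to the floor set for values near background in tumor cells with null MEFs, so that the direction turned (-1.40). Il4i1, which makes AHR ligands from amino acids, rose by 1.03, which became 0.47 after plain subtraction and 0.73 with rescaling. Fgf21, a secreted metabolic hormone, was at least 2.19-fold higher (limma adjusted p = 0.0138, means 6.71 and 5.57). The fold is a bound, as Fgf21 was not well above background in tumor cells alone, with only 1 array judged in each group. Its levels were 7.11 and 6.30 with null MEFs and 5.80 and 5.34 alone. Epas1, the hypoxia factor HIF2A, fell by 0.36. The count of 10 was 6 without tumor cells with null MEFs A and 4 without their B. It was 4 without tumor cells alone A, 5 without tumor cells alone B, and 6 without either array of WT MEFs with tumor cells.

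Between the partners 3 were higher with null MEFs and 3 lower, a share of 14.3% beside 9.5% of all genes. Xdh was higher by 0.96 ± 0.12 (limma adjusted p = 0.000783), Gsta1 by 1.14 and Il4i1 by 0.90. Epas1 was lower by 0.56, Arntl by 0.67 and Cyp2s1, a dioxin-inducible cytochrome P450, by 0.58.

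In WT MEFs after co-culture 6 rose and 4 fell, a share of 23.8% beside 10.5% of all genes. Xdh went from 8.78 and 8.86 to 10.74 and 10.78, a rise of 1.94 ± 0.12 (limma adjusted p = 2.11e-06), with 1.01 left after plain subtraction of the tumor share and 1.69 with rescaling. Cyp2s1 rose by 1.38, Arntl2 by 1.27 and Ereg by 0.70. All were more abundant in tumor cells. Subtraction brought Cyp2s1 to the floor in co-cultured WT MEFs (-2.21 in both versions). It gave -0.10 for Arntl2 and -1.24 for Ereg, or 0.59 and -0.55 with rescaling. Arnt2, a relative of ARNT, rose by 0.69 and was above background on 1 of 2 arrays of lone WT MEFs. It was 6.68 and 7.02 in tumor cells alone, and its difference became -0.24 after plain subtraction and 0.44 with rescaling. Slc7a5 fell by 0.56, or by 1.16 and 0.47 in these versions. The count of 10 was 3 without either array of co-cultured WT MEFs or WT MEFs alone A, and 5 without WT MEFs alone B.

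In null MEFs after co-culture 3 rose and none fell, a share of 7.14% beside 3.15% of all genes. Xdh went from 8.99 on both arrays to 10.73 and 10.65, a rise of 1.70 ± 0.12 (limma adjusted p = 1.21e-05), with 1.31 left after plain subtraction and 1.45 with rescaling. Ereg rose by 1.34 and Arntl2 by 0.51. These became -1.39 and 0.17 after plain subtraction, and -1.25 and 0.31 with rescaling. Xdh, Ereg and Arntl2 were each among the genes that rose in all 4 comparisons of co-cultured with lone cells.

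In null against WT MEFs alone 5 were higher and 9 lower, a share of 33.3%, near the 33.8% of all genes. Ereg was 7.60 and 7.76 in null and 10.19 and 10.54 in WT MEFs, lower by 2.69 ± 0.14 (limma adjusted p = 2.6e-07). Slc7a5 was lower by 1.74, Nedd9, an adhesion scaffold, by 1.23, Sim2 by 0.60 and Epas1 by 0.46. Kynu, the kynureninase of tryptophan breakdown, was at least 3.82-fold higher in null MEFs, as it was not well above background in WT MEFs (limma adjusted p = 4.36e-07, means 6.78 and 4.84). The count of 14 was 9 without WT MEFs alone A, 8 without WT MEFs alone B and 9 without null MEFs alone A.

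In co-culture 7 were higher and 8 lower in null MEFs, a share of 35.7% beside 29.6% of all genes. Ereg was lower by 2.04, Cyp2s1 by 1.11, Slc7a5 by 0.95, Epas1 by 0.71 and Sim2 by 0.86, and Kynu was at least 3.67-fold higher (limma adjusted p = 1.31e-06, means 6.77 and 4.89). Cyp2s1, at the floor in WT MEFs after subtraction, turned to 1.73 or, with rescaling, 1.87. Epas1 became -0.08 after plain subtraction and -0.63 with rescaling. The co-culture response itself differed between the genotypes for 4 of the 42 genes (Hes1, Slc7a5, Cyp2s1 and Arntl2), beside 3.03% of all genes.

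**Figure D5:**
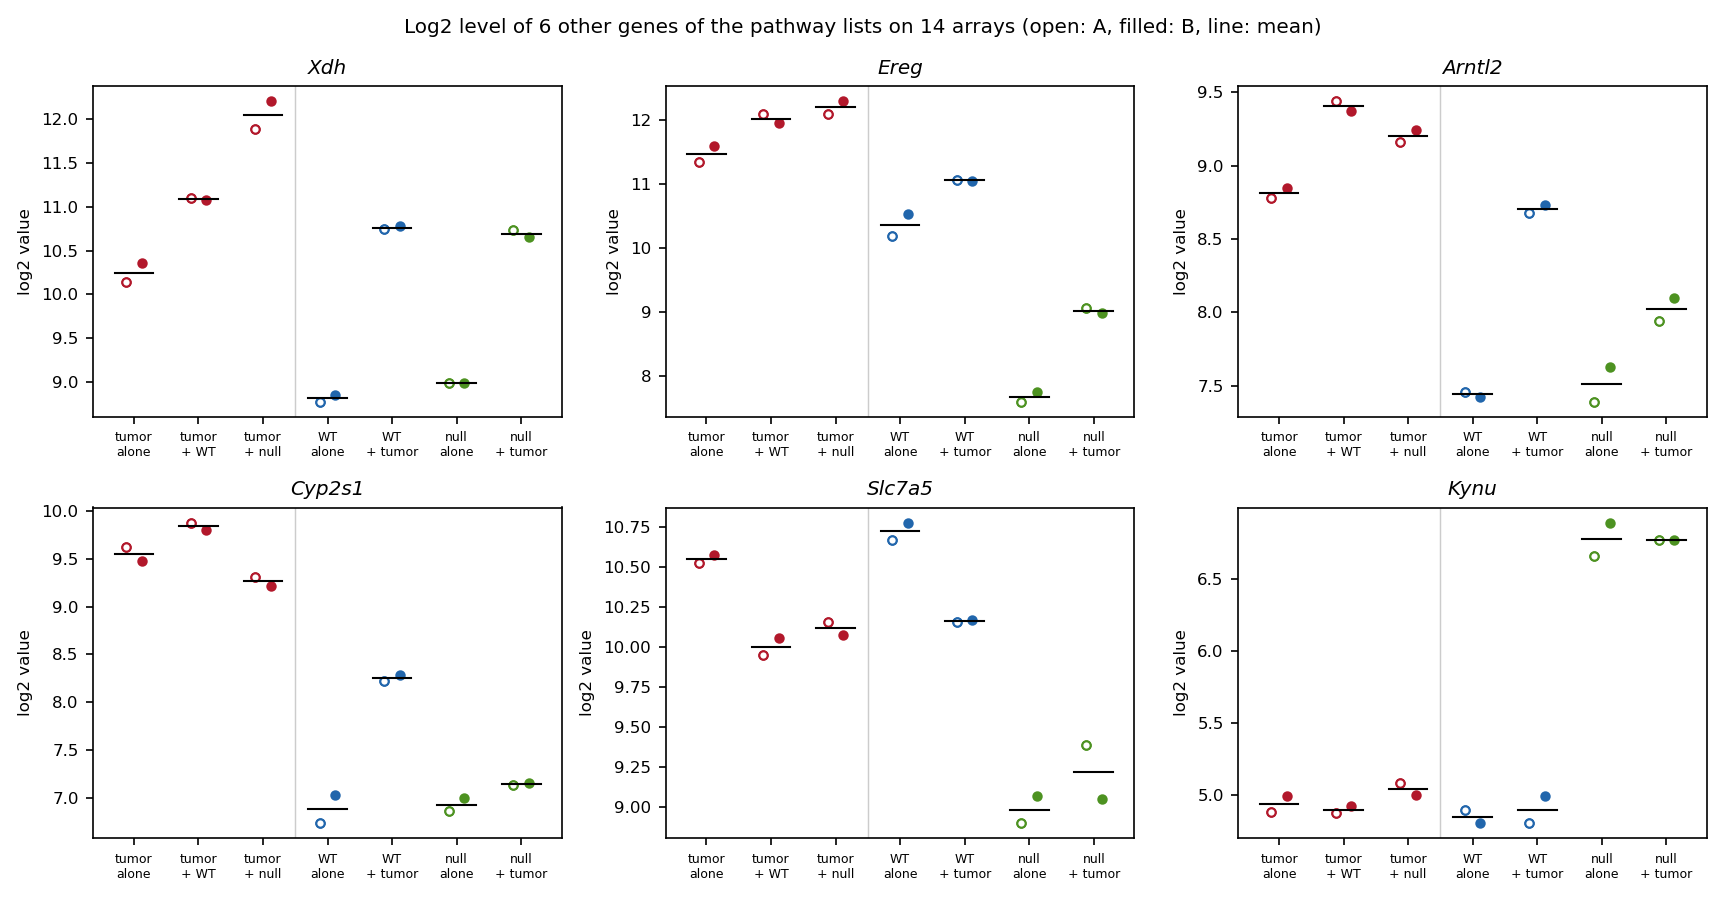
Log2 level (vertical axis, scale set per gene) of 6 other genes of the pathway lists on each of the 14 arrays, by group; open and filled points are replicates A and B and the line is their mean. Xdh, Ereg and Arntl2 are higher in co-cultured than in lone cells of each kind, and Kynu reaches 6.66 to 6.89 only in null MEFs.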

How the data were processed

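RNA of 14 samples in 7 groups was measured on 1-colour Agilent mouse arrays of 59305 spots. The scanner files hold intensity values, deposited by the authors after background subtraction in Feature Extraction. Its version is 10.1.1.1 in the file headers and 9.1 in the submitters' processing notes. The authors' deposited value table holds log2 values for 36413 gene names. It tracked the mean of log2 over all spots of a gene name (median r = 0.985). Its scaling between arrays is not given in the sources used here, and array medians lay between 6.33 and 6.40. That table was used because 2 scanner files were faulty (36.8% and 32.1% of spots flagged as outliers, at most 5.75% elsewhere).

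Tested were 25852 gene names well above background on every judged array of at least 1 group; spots with outlier flags and the faulty files were not judged. A mean for each group was fitted with limma 3.58.1 in R 4.3.3, with 7 residual degrees of freedom and Benjamini-Hochberg adjustment (threshold 0.05). Only 2 arrays per group limit the precision.

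The members, pathway lists and cell type markers were chosen with earlier results of these data known. Named were all members, up to 6 pathway genes with the smallest p per comparison, and genes among the 5 most similar to each member. The test of the difference between the co-culture responses of null and WT MEFs was added after seeing the data. Same-letter arrays share a slide. Their deviations from group means correlated by 0.092 to 0.599 over 21 pairs of groups, and the labels do not say what the letter marks.

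As an estimate of other-cell RNA, the median share of typical genes times the other cell type's level was subtracted on the linear scale. As planned, the rest was not rescaled. Dividing it by 1 minus the share was added after seeing that the plain subtraction lowered all genes of an array together. Where a subtracted difference is printed, both versions are given. The result of 1 pathway list is not reported here.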

Additional observations from a re-analysis of the deposited data

Results flagged for a closer look

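For 4 genes of the pathway lists the co-culture response differed between null and WT MEFs by a test of the difference itself, added after seeing the data (limma adjusted p, among 25852 genes of which 3.03% passed). Hes1, a Notch-responsive repressor, differed by 2.99 (log2, null minus WT, adjusted p = 0.0118). It was 9.26 and 8.48 in WT MEFs alone and 7.72 and 7.10 after co-culture, and 7.74 and 7.51 in null MEFs alone and 9.20 and 9.11 after co-culture. Cyp2s1 differed by -1.16 (adjusted p = 0.00337), and it is more abundant in tumor cells than in lone MEFs of either genotype. Arntl2 differed by -0.76 (adjusted p = 0.0255). Slc7a5 differed by 0.80 (adjusted p = 0.041). The tumor-typical share was larger in WT than in null MEFs. After its plain subtraction the values were 3.21 for Hes1, 1.12 for Slc7a5, 0.27 for Arntl2 and 1.68 for Cyp2s1. With rescaling they were 2.66, 0.57, -0.28 and 1.82. The direction of Cyp2s1, at the floor in WT MEFs, thus turned in both versions and that of Arntl2 in the plain one, while Hes1 and Slc7a5 kept theirs.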

How the results depend on the processing

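Of 11 member differences that were at least 2-fold without overlap, none changed sign under any alternative run, over 924 values for 42 member differences. Of these values 849 stayed within 1 SD of the replicates, but many could not move. The differences are plain group means, which the replicate block, the run without the background filter and the fits by cell type leave unchanged. Leaving out an array outside the comparison does not change them either. The 849 and the absence of sign changes therefore do not stand for 924 separate checks. Among differences under 2-fold or with overlap, 24 values changed sign. The count of members uses no model, so the replicate block (slide) could not change it. With that block pathway genes passing numbered 11, 12, 7, 11, 4, 18 and 16 in the order of the report, each within 1.5 times.

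On the 12 sound scanner arrays scaled to the 75th percentile, pathway genes passing were 2 in tumor cells with either partner, 3 between partners, 4 in WT MEFs, 7 in null against WT MEFs alone and 8 in co-culture, and 2 members were counted in WT MEFs. With normexp and quantile they were 4 in tumor cells with WT MEFs, 2 in those with null MEFs, 6 in WT MEFs and 7 in lone null against WT MEFs, where 1 member was counted. With each cell type fitted alone they were 5, 3 and 1 in the 3 tumor cell comparisons.

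The planned subtraction of the other cell type moved the median of all genes by up to -0.77, in WT MEFs. There 35 pathway genes passed (1 higher, 34 lower) among 21428 of all genes, and 2 members were counted. In null against WT MEFs in co-culture 28 passed and the median of all genes was 0.61. Both counts come with a shift of all genes of an array together. In tumor cells with WT MEFs 5 passed, where the median of all genes was -0.16 and the cause was not tested. With rescaling, added after seeing the data, the medians were -0.11 and 0.09. Pathway genes passing were then 5 in tumor cells with WT MEFs, 6 in those with null MEFs, 5 in WT MEFs and 1 in null MEFs.

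Leaving out 1 array at a time, pathway genes passing ranged from 4 to 11 in tumor cells with WT MEFs and 4 to 13 in those with null MEFs. The ranges were 5 to 7 between partners, 3 to 12 in WT MEFs, 2 to 4 in null MEFs, 8 to 18 in null against WT MEFs alone and 11 to 17 in co-culture. Counted members ranged from 1 to 2, 2 to 3, 1 to 1, 1 to 2, 2 to 2, 1 to 3 and 2 to 2 in the same order. A lone array was assumed to vary like the other groups. Signal over background limits Cyp1a1 and the dimmer Ahr and Ahrr probes.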
